A study of Homo sapiens with 10 samples.

Results

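The 42 DNA replication and S phase genes described here are the genes of a list of human replication factors whose symbol stands in the deposited read count table, and 42 of 42 had a row there. They are MCM2 to MCM7, MCM10, CDC6, CDT1, CDC45, GINS1 to GINS4, ORC1, ORC6, PCNA, RFC1 to RFC5, POLA1, POLA2, PRIM1, PRIM2, POLD1, POLE, POLE2, FEN1, LIG1, RPA1 to RPA3, RRM1, RRM2, TYMS, TK1, CCNE1, CCNE2, E2F1 and UHRF1, out of 22626 rows in all. RNA was sequenced from ARPE-19, an established human retinal pigment epithelial (RPE) cell line that divides in culture. The control group (n = 5) was kept for 48 h in 5.5 mM glucose with 32 mM mannitol, a sugar alcohol added to match the dissolved load, and the high glucose group (n = 5) for 48 h in 37.5 mM glucose. All cells came from the same line and were grown in DMEM with 10% serum, and the labels name no genetic change in either group. Control libraries are numbered 1 to 5 as labelled, and high glucose libraries are named by their column, HG_1 to HG_5, because the labels tie those columns to the group but not to a sample.

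Before S phase, the origin recognition complex (ORC) with CDC6 and CDT1 loads the ring-shaped MCM2 to MCM7 helicase onto DNA, and CDC45 and the GINS complex then switch the helicase on. Primase and DNA polymerases copy the strands, replication factor C (RFC) loads the sliding clamp PCNA, and FEN1 and LIG1 finish the lagging strand. E2F1 and cyclin E promote the G1 to S transition, and many genes of this machinery are known E2F targets that are read most strongly around that transition. RPE cells of the adult eye hardly divide, whereas ARPE-19 cells in culture do.

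The expression of most of these genes was lower in the high glucose group. In edgeR's quasi-likelihood test, with p adjusted over the 14936 rows that passed the filter on low counts, 25 of the 42 genes were lower at an adjusted p under 0.05 and 0 were higher. Over all rows tested, 7.8% were lower and 7.62% higher under the same call, so that 59.5% of the replication genes stood beside a background of 7.8%. All 42 genes passed the filter. The remaining 17 did not pass the test, 12 of them with a negative and 5 with a positive log2 fold change (high glucose against control). The median log2 fold change of the 42 genes was -0.28, beside 0.0013 over all rows. Falls were modest: 4 genes (CCNE2, MCM6, UHRF1 and E2F1) were lower with a fold change above 1.5, a call made for 2.02% of all rows in that direction. The RNA comes from whole cultures, so fewer cells in S phase and less of these RNAs per cell cannot be told apart. The labels do not say whether the libraries of a group came from separate cultures, and p-values measure the spread between these libraries, which may be technical.

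In 24 of the 42 genes every high glucose library was below every control library, beside 6.91% of all rows, and in 0 genes was every high glucose library above, beside 6.74%. All 24 are among the 25 genes called lower, and ORC1 is the gene that was called with overlapping groups.

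**Figure D1:**
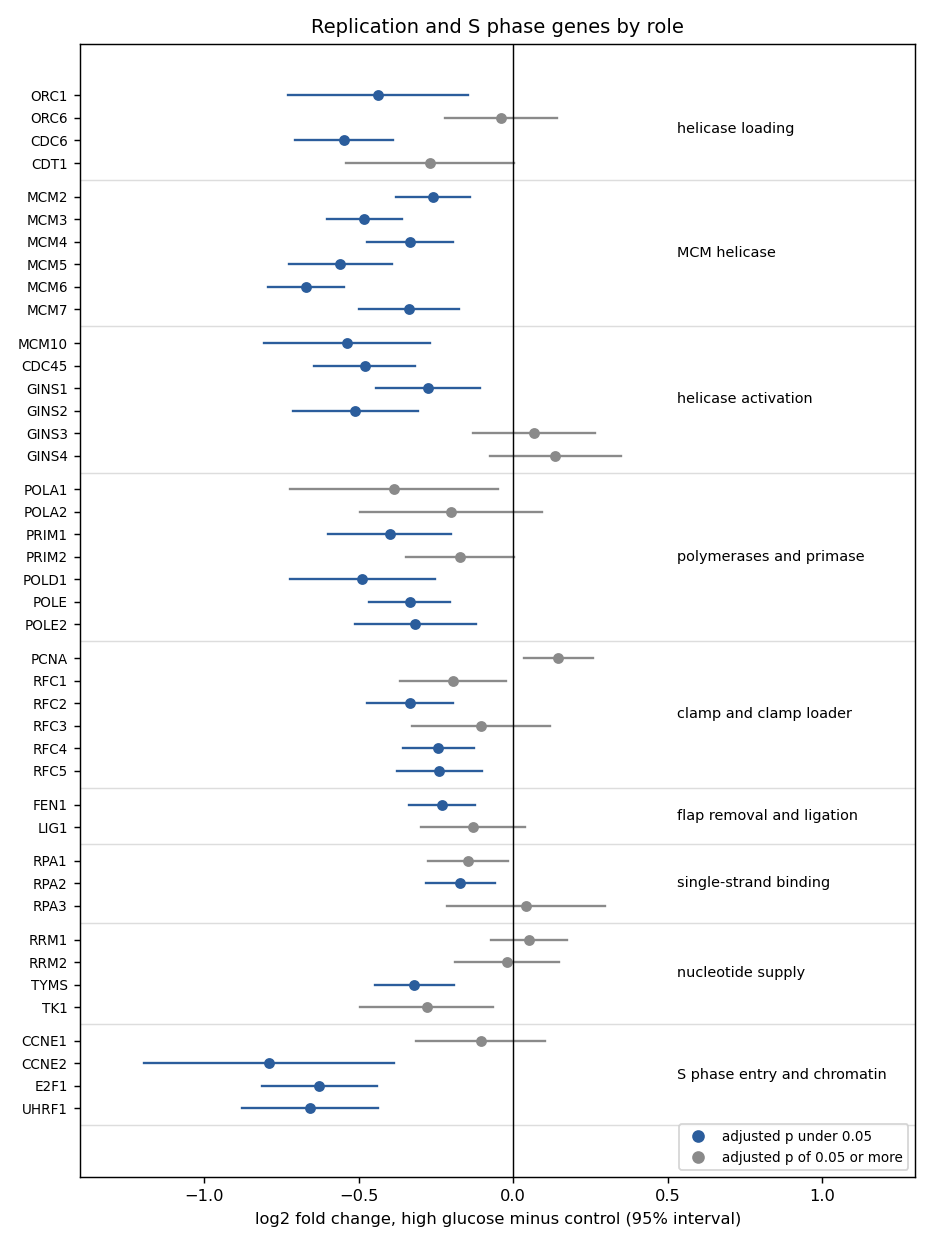
Log2 fold change (x axis, high glucose minus control) of each of the 42 genes (y axis, by role), with the 95% interval of the edgeR fit, not adjusted for the number of genes. Blue points are the 25 genes with an adjusted p under 0.05, all left of 0, and grey points the other 17, among them GINS3, GINS4, PCNA, RPA3 and RRM1 right of 0.

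Among upstream sequences, the ones shown are of genes whose RefSeq promoter (build GRCh38.p14, the 250 bases before the annotated start) holds an E2F motif, because E2F is the factor best known to act on this machinery. An E2F motif was counted as TTTCCCGC, TTTGGCGC, TTTCGCGC or TTTGCCGC on either strand. The promoter table used here matched 36 of the 42 genes, and the promoters of MCM4, MCM5, GINS4, RPA2, RPA3 and CCNE2 were not analysed here. Some genes have several annotated starts there, and a gene was counted if the bases before any of them held the motif. Of the 36, 14 (38.9%) held the motif, beside 3.4% of the 27305 genes in the promoter table. Of its 35116 start windows, 2.79% did. The share was 8 of 21 (38.1%) among the genes called lower and 6 of 15 among those not called, a like share on either side of the test. Of the 14, the stretches of 6 genes are printed in which the motif lies outside any exon of GENCODE release 29, in the sense of the gene, with the motif in capitals. A match describes letters only and does not show binding.
MCM6 (called lower; chr2:135876522-135876621, minus strand): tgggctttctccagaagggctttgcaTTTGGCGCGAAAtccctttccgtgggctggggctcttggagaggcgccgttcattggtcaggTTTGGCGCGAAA
E2F1 (called lower; chr20:33686405-33686504, minus strand): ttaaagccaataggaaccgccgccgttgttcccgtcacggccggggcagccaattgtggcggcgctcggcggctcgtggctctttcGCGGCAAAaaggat
UHRF1 (called lower; chr19:4909954-4910053, plus strand): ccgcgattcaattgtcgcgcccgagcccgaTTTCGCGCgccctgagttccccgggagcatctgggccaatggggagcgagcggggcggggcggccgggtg
MCM3 (called lower; chr6:52284882-52284981, minus strand): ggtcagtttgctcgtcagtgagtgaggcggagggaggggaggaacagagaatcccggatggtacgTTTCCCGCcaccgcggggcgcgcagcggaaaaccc
PCNA (not called; chr20:5126627-5126726, minus strand): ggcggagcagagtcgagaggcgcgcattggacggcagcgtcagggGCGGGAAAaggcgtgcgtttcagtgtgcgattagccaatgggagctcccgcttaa
POLA1 (not called; chrX:24693751-24693850, plus strand): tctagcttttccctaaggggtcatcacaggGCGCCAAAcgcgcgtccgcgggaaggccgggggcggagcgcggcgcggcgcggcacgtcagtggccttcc

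The MCM6 stretch holds the motif at 2 places, each of them a pair of overlapping matches, 1 on each strand. E2F1 holds a further match nearer to its start, which lies in an annotated exon and is not printed, and UHRF1 holds a further match, also not printed, before another of its annotated starts. The other 8 genes with a match were MCM7, GINS2, POLE and TYMS, which were called lower, and CDT1, POLA2, RFC3 and LIG1, which were not. The CCAAT box (CCAAT on either strand) was found in 22 of the 36 promoters (61.1%), beside 37.0% of all genes. The cell cycle homology region (CHR), an element known from genes of mitosis and searched as TTTGAA or TTCGAA on either strand, was found in 2 of the 36 (5.56%), beside 17.2% of all genes and 12 of 20 mitosis genes.

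The libraries held between 32448991 and 45864176 counts. HG_1 and control 2 stood apart from the other 8 in GC trend. The trend was fitted on log2 CPM minus each gene's mean over the 10 libraries. For each 10 points more in GC percent, this deviation rose by 0.188 and 0.17 in HG_1 and control 2. In the others it changed by -0.0916 to -0.00519. As deviations from a shared mean, the slopes of the others are not independent of those of HG_1 and control 2. Without HG_1 and control 2, 28 of the 42 genes were lower and 0 higher. Of these, 24 are among the 25 (ORC1 was lost and CDT1, POLA1, RFC1 and TK1 were added). That fit called 2051 of 14899 rows lower and 1984 higher, beside 1165 and 1138 of 14936 with all libraries. As for the label of the cells, the RPE genes MITF, OTX2, KRT8 and KRT18 were read in every library, while RPE65, the visual cycle isomerase, was at 0 in 9 libraries and TTR at 0 in 10. The summed level of 13 RPE markers was 2839 to 3598 CPM (counts divided by the TMM-normalized library total, on the usual CPM scale) in the control group and 1802 to 2477 in the high glucose group. Most of that sum was KRT8 (1713 to 2087 against 1052 to 1500 CPM) and KRT18 (946.8 to 1200.0 against 586.6 to 814.8 CPM), keratins that many epithelia make. Without overlap, OTX2 (92.5 to 102.3 against 87.0 to 90.3 CPM) and PMEL (3.35 to 4.35 against 1.92 to 2.62 CPM) were lower in the high glucose libraries too. The groups overlapped in MITF (51.5 to 64.9 against 43.9 to 55.2 CPM), RLBP1 (8.67 to 12.8 against 7.45 to 11.2 CPM) and LRAT (0.908 to 1.77 against 1.25 to 1.66 CPM). BEST1 spread from 0.577 to 551.5 CPM within the control group. Levels of the other RPE markers are not printed here, and overlap was not confined to the genes named. That of 5 endothelial markers was 2.93 to 5.05 against 2.13 to 3.13 (CDH5 at 0), that of 5 neuron and glia markers 1.26 to 2.00 against 0.961 to 1.65, and that of 5 leukocyte markers 55.1 to 82.3 against 101.9 to 145.0. CD68, a lysosomal protein that other cells also make, held 54.5 to 81.1 and 101.6 to 143.4 CPM of the leukocyte sum, with CD3E at 0 in every library and PTPRC at no more than 4 counts. The part of these marker levels in the results was not tested.

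All 6 subunits of the MCM helicase were lower in the high glucose group, and in none did the groups overlap. MCM6 read 72.7, 75.5, 75.8, 82.6 and 76.2 CPM in control 1 to 5 and 43.6, 50.8, 47.1, 48.3 and 50.7 in HG_1 to HG_5. Its log2 fold change was -0.67 (SE 0.056, edgeR adjusted p = 6.97e-05), a fall from 76.6 ± 3.64 to 48.1 ± 2.97 CPM (SD, n = 5). The gap between the lowest control and the highest high glucose library was wider than the range within either group. MCM5 read 82.4, 104.1, 86.7, 91.5 and 93.2 CPM in the control libraries and 68.8, 55.9, 59.0, 66.2 and 60.9 in the high glucose libraries (log2 fold change -0.56, SE 0.076, adjusted p = 0.000866). Control 2 was the highest control library of MCM5 and HG_1 the highest high glucose library, the same 2 libraries that stood apart on GC content. MCM3 read 112.8, 120.1, 120.3, 124.7 and 126.2 CPM against 86.3, 84.2, 78.2, 93.8 and 90.3 (log2 fold change -0.48, SE 0.055, adjusted p = 0.000321).

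The other 3 subunits had smaller log2 fold changes. MCM7 read 188.9, 228.8, 201.4, 206.9 and 198.1 CPM in the control libraries and 186.0, 145.7, 151.4, 168.2 and 159.8 in HG_1 to HG_5 (log2 fold change -0.34, SE 0.073, adjusted p = 0.0106). HG_1 came close to control 1, and the other 4 high glucose libraries were further below. MCM4 read 154.5, 148.3, 158.9, 163.6 and 154.3 CPM against 110.3, 119.6, 117.9, 139.4 and 130.8 (log2 fold change -0.34, SE 0.063, adjusted p = 0.00495). MCM2 ranged from 77.4 to 88.5 CPM in the control group and from 62.9 to 72.2 in the high glucose group, with the smallest log2 fold change of the 6, -0.26 (SE 0.054, adjusted p = 0.00883). MCM2 overlaps an antisense transcript and MCM7 the gene AP4M1 on the opposite strand, and whether the counting used strand is not given in the sources used here.

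**Figure D2:**
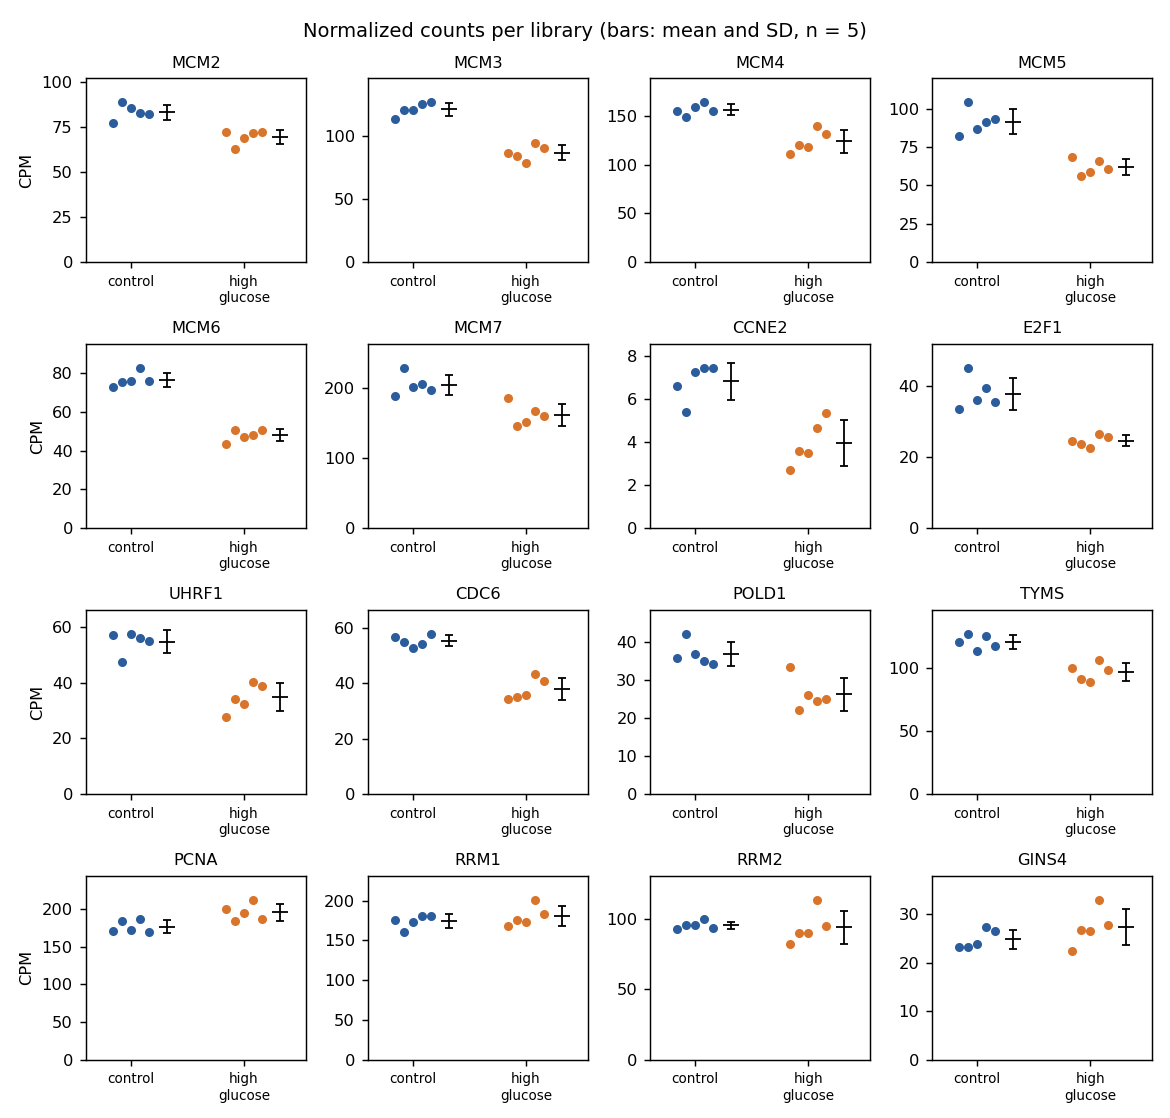
Normalized counts (y axis, CPM, from 0) of 16 genes in each control (blue) and high glucose (orange) library, in the order 1 to 5, with bars for mean and SD (n = 5). In the panels of MCM2 to MCM7, CCNE2, E2F1, UHRF1, CDC6, POLD1 and TYMS every orange point lies below every blue point, while PCNA, RRM1, RRM2 and GINS4 overlap.

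Of the 4 helicase loading genes, 2 were lower. CDC6, the ATPase that completes the loader with ORC, read 56.8, 55.2, 52.8, 54.4 and 57.9 CPM in control 1 to 5 and 34.6, 35.0, 35.7, 43.4 and 41.1 in HG_1 to HG_5. The groups were far apart (log2 fold change -0.55, SE 0.071, edgeR adjusted p = 0.000702), and HG_4 and HG_5 were the highest of the high glucose group. ORC1, the largest ORC subunit, ranged from 8.61 to 12.2 CPM in the control group and from 6.55 to 9.73 in the high glucose group, and the overlap came from control 1. It passed the test narrowly (log2 fold change -0.44, SE 0.13, adjusted p = 0.0476) and kept its call in 8 of 22 alternative settings. CDT1, which brings the MCM ring to the loader, did not pass, at a log2 fold change of -0.27 (SE 0.12, adjusted p = 0.177), with control 2 at 29.2 CPM and HG_1 at 25.1 CPM above the 8 other libraries (16.8 to 23.5 CPM). Without these 2 libraries CDT1 was called lower. ORC6 had a log2 fold change of -0.04 (95% interval -0.22 to 0.14).

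Of the 6 helicase activation genes, 4 were lower. MCM10, which helps to activate the loaded helicase, read 15.2, 11.4, 13.5, 16.7 and 16.5 CPM in the control libraries and 8.76, 11.3, 8.92, 10.97 and 10.6 in the high glucose libraries (log2 fold change -0.54, SE 0.12, adjusted p = 0.0132). Control 2 and HG_2 nearly met, at 11.39 and 11.25 CPM, and the other 8 libraries were well separated. CDC45, which rides with the helicase, read 18.9, 21.6, 17.9, 20.1 and 19.2 CPM against 14.1, 14.1, 12.8, 15.5 and 13.6 (log2 fold change -0.48, SE 0.074, adjusted p = 0.00159). GINS2 read 23.8, 28.3, 21.4, 24.9 and 22.4 CPM against 19.6, 16.2, 15.2, 17.4 and 16.5 (log2 fold change -0.51, SE 0.092, adjusted p = 0.0039).

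The calls differed among the 4 subunits of the GINS complex. GINS1 had a log2 fold change of -0.28 (95% interval -0.44 to -0.11, adjusted p = 0.0323) and GINS2 one of -0.51 (interval -0.71 to -0.31). GINS1 kept its call in 13 of 22 alternative settings and GINS2 in 22. GINS3 and GINS4 did not pass the test, with log2 fold changes of 0.067 (interval -0.13 to 0.27, adjusted p = 0.694) and 0.14 (interval -0.076 to 0.35, adjusted p = 0.406). The intervals of GINS3 and GINS4 do not reach that of GINS2. Differences between the subunits were not themselves tested. Exons of GINS3 and GINS4 overlap antisense transcripts, over 558 bases for GINS3 and over 1159 and 131 bases for the 2 transcripts at GINS4.

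Of the 7 polymerase and primase genes, 4 were lower and 7 had a negative log2 fold change. POLD1, the catalytic subunit of polymerase delta, read 35.7, 41.96, 36.9, 34.9 and 34.0 CPM in the control libraries and 33.3, 22.1, 26.0, 24.5 and 24.9 in HG_1 to HG_5 (log2 fold change -0.49, SE 0.11, edgeR adjusted p = 0.0106). HG_1 came close to the control libraries, and the other 4 were far below the lowest of them. POLE, the catalytic subunit of polymerase epsilon, read 47.3, 48.7, 48.6, 54.2 and 51.3 CPM against 39.98, 37.0, 38.9, 43.9 and 38.4 (log2 fold change -0.34, SE 0.059, adjusted p = 0.00357). PRIM1, the catalytic primase subunit, read 10.8, 10.99, 11.9, 11.4 and 9.05 CPM against 7.69, 7.51, 8.54, 8.63 and 8.64 (log2 fold change -0.40, SE 0.090, adjusted p = 0.0127). POLE2, an accessory subunit of polymerase epsilon, was called lower at a low level, 5.72 ± 0.263 against 4.59 ± 0.269 CPM (log2 fold change -0.32, adjusted p = 0.0338). Its call was kept in 12 of 22 alternative settings.

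The 3 genes that did not pass, POLA1, POLA2 and PRIM2, belong to the polymerase alpha-primase complex, which makes the primers and whose other subunit, PRIM1, was called lower. POLA1, its catalytic polymerase, had a log2 fold change of -0.39 with a wide interval (-0.72 to -0.049, adjusted p = 0.121). Its 2 highest control libraries (23.6 and 22.1 CPM) and lowest high glucose library (12.1 CPM, HG_1) were far apart, but control 2 (15.5 CPM) and HG_4 (20.8 CPM) crossed the other group. Without HG_1 and control 2 it was called lower. POLA2 (log2 fold change -0.20, adjusted p = 0.368) ranged from 28.1 to 43.6 CPM within the control group. Of the 100-base windows of the POLA2 transcript, 52.5% also occur in the annotated gene AP000944.2, so its counts could be split by the counting. Annotated genes other than AP000944.2 share windows with RRM2 (27.5%), UHRF1 (20.7%), PRIM1 (20.3%), PRIM2 (13.4%) and POLD1 (9.57%), whose counts could be split likewise. Without these 6 genes, POLA2 included, 22 of the remaining 36 were lower, a check chosen after the data were seen.

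Of the 6 clamp and clamp loader genes, 3 were lower, and the clamp itself was not. RFC2 read 38.5, 46.9, 41.4, 41.3 and 41.6 CPM in the control libraries and 35.8, 32.2, 32.1, 34.8 and 31.5 in the high glucose libraries (log2 fold change -0.33, SE 0.063, adjusted p = 0.00517). Control 1 was the lowest control library and HG_1 the highest high glucose library, and they stood close together. RFC4 and RFC5 had log2 fold changes of -0.24 and -0.24 (adjusted p = 0.01 and 0.0252), and RFC1 and RFC3 did not pass, with -0.20 (adjusted p = 0.12) and -0.11 (adjusted p = 0.563). The 5 genes encode the subunits of the complex that opens the clamp and sets it on DNA.

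PCNA, the sliding clamp that holds polymerases on DNA, read 170.6, 184.2, 172.4, 187.0 and 169.2 CPM in control 1 to 5 and 199.5, 184.5, 194.3, 211.9 and 186.9 in HG_1 to HG_5. Its values were chosen for printing after they were seen, since it had the highest log2 fold change of the 42 genes, 0.15 (95% interval 0.034 to 0.26). In edgeR it did not pass (adjusted p = 0.078), and HG_2 and HG_5 lay just below control 4. With DESeq2, and with edgeR scaled by library size alone, it was called higher, and with the GC and length correction its log2 fold change was 0.070 and was not called. An unadjusted two-sided exact permutation test over the libraries gave 0.0238, where 5 against 5 can go no lower than 0.00794. Its interval lies above those of all 6 MCM subunits, which end at -0.14 or lower.

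Downstream of the polymerases, FEN1, the nuclease that trims the flaps of lagging strand fragments, read 82.9, 87.2, 84.9, 82.7 and 82.5 CPM in the control libraries and 75.1, 68.7, 68.2, 77.4 and 69.1 in the high glucose libraries (log2 fold change -0.23, SE 0.048, edgeR adjusted p = 0.00914). Its ligase partner LIG1 had a log2 fold change of -0.13 (95% interval -0.30 to 0.039, adjusted p = 0.308). RPA2, a subunit of the RPA complex that covers single-stranded DNA, read 46.6, 48.9, 44.8, 44.9 and 45.9 CPM against 42.6, 40.04, 39.8, 44.0 and 38.8 (log2 fold change -0.17, SE 0.051, adjusted p = 0.0435). The groups of RPA2 nearly touched, and its call was kept in 12 of 22 settings. RPA1 and RPA3 did not pass, with log2 fold changes of -0.15 (adjusted p = 0.126) and 0.041 (adjusted p = 0.866).

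Of the 4 nucleotide supply genes, TYMS alone was called. TYMS, the thymidylate synthase that makes dTMP, read 121.0, 127.0, 113.2, 125.6 and 117.7 CPM in the control libraries and 99.8, 91.3, 88.6, 106.4 and 98.2 in the high glucose libraries (log2 fold change -0.32, SE 0.058, adjusted p = 0.00393). TYMS shares 967 bases of exon with ENOSF1 on the opposite strand. TK1, which salvages thymidine, had a similar log2 fold change of -0.28 with a wider interval (-0.49 to -0.064, adjusted p = 0.081). Control 2 and HG_1 held the highest TK1 value of their groups (124.5 and 105.0 CPM), and without them TK1 was called lower. The ribonucleotide reductase subunits did not pass: RRM1 had a log2 fold change of 0.050 (interval -0.073 to 0.17) and RRM2 one of -0.019 (interval -0.19 to 0.15). RRM2 spread from 81.8 to 113.2 CPM within the high glucose group, HG_4 being the highest, and from 92.9 to 99.4 within the control group.

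Of the 4 genes of S phase entry and chromatin, 3 were lower, and with MCM6 they had the 4 largest absolute log2 fold changes of the 42 genes. CCNE2, a cyclin E that activates CDK2, read 6.61, 5.38, 7.24, 7.41 and 7.41 CPM in control 1 to 5 and 2.68, 3.56, 3.50, 4.62 and 5.35 in HG_1 to HG_5. Its log2 fold change of -0.79 was the lowest of the 42 genes and also had the widest SE (0.18, edgeR adjusted p = 0.0144), and control 2 and HG_5 nearly met. It is a gene of low level, with 103 to 330 counts per library, and 1629 bases of its exons overlap INTS8 on the opposite strand. In limma on log2(FPKM + 1) over all rows CCNE2 was not called. CCNE1, the other cyclin E, had a log2 fold change of -0.11 (95% interval -0.31 to 0.10, adjusted p = 0.53), whose interval does not reach the CCNE2 estimate.

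E2F1, the transcription factor of the G1 to S transition, read 33.4, 44.9, 35.9, 39.3 and 35.4 CPM in the control libraries and 24.4, 23.5, 22.5, 26.3 and 25.7 in the high glucose libraries (log2 fold change -0.63, SE 0.084, adjusted p = 0.000802). The high glucose libraries lay close together, and the control libraries were spread more widely, with control 2 the highest. UHRF1, which brings the maintenance methyltransferase DNMT1 to newly copied DNA, read 57.4, 47.6, 57.6, 56.3 and 54.9 CPM against 27.9, 34.3, 32.4, 40.3 and 38.9 (log2 fold change -0.66, SE 0.10, adjusted p = 0.00152). Control 2 was the lowest control library of UHRF1, and it was still above HG_4, the highest high glucose library.

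**Figure D3:**
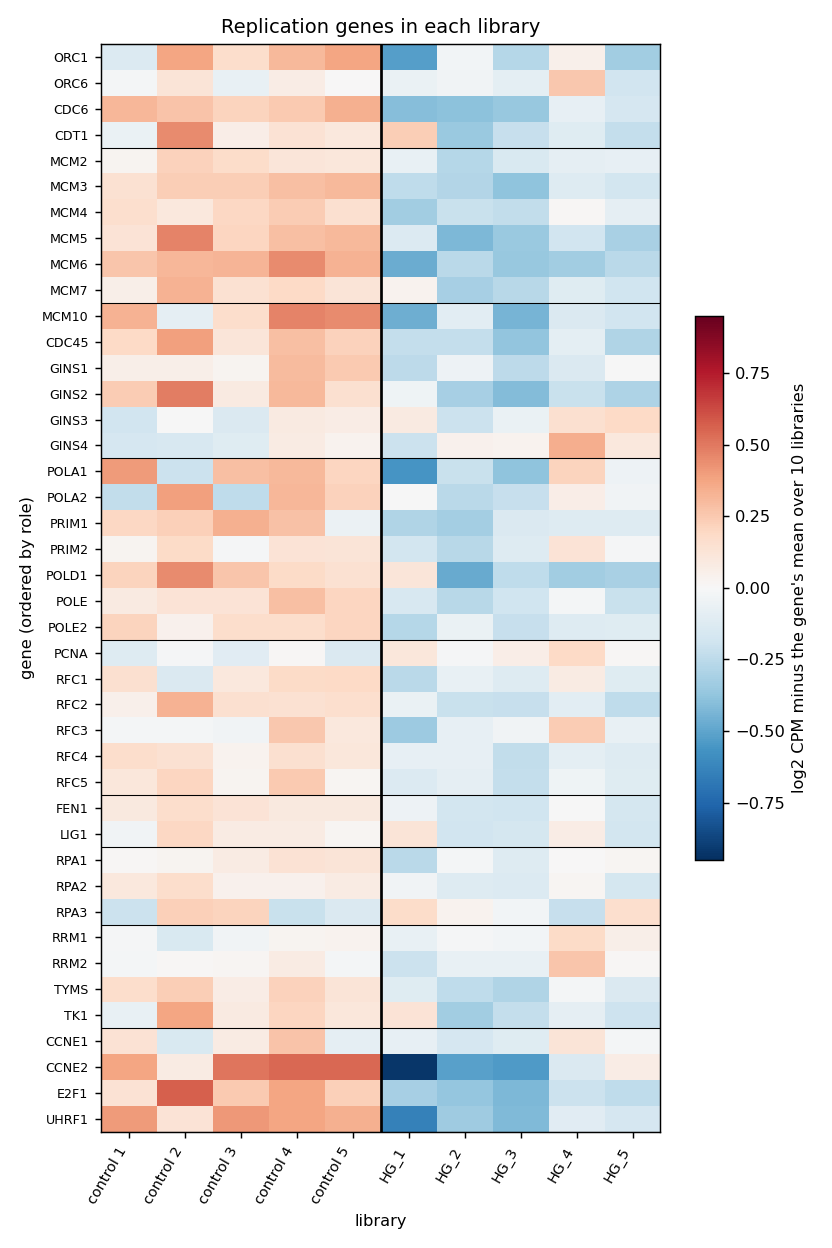
Log2 CPM minus the gene's mean over the 10 libraries (colour) for the 42 genes (y axis, by role) in each library (x axis). Red marks values above and blue values below a gene's mean, and the black line parts the groups. HG_4 is the palest high glucose column, and control 2 and HG_1 depart from the other columns of their group in several genes.

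The libraries of a group did not share 1 level. Averaged over the 42 genes, the log2 deviation from each gene's mean was between 0.088 and 0.208 in the control libraries and between -0.219 and -0.020 in the high glucose libraries. HG_4 was the highest at -0.020, and HG_3 the lowest. HG_4 held the highest value of the high glucose group in 23 of the 42 genes and control 2 the highest of the control group in 19. Over MCM2 to MCM7 alone the control libraries lay between 0.129 and 0.278 and the high glucose libraries between -0.294 and -0.137. These averages are a description, without a test, because the genes were chosen with results of these libraries known.

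Levels between genes were compared per transcript length, in FPKM, which divides by transcript length and library size. The length that counts and FPKM imply was not fixed for every gene. Its coefficient of variation over libraries was 13.2% for CCNE2 and 7.45% for MCM10, but 0.353% for PCNA and 1.73% for MCM7. In the control group PCNA was the highest of the 42 genes at 127 ± 5.52 FPKM (SD, n = 5), followed by MCM7 at 73.6 ± 4.78, TYMS at 69.4 ± 2.47 and TK1 at 66.5 ± 6.93. MCM7, TYMS and TK1 did not differ beyond their spread. CCNE2 was the lowest, at 2.55 ± 0.411 FPKM, with POLE2 (3.18 ± 0.221), ORC1 (3.26 ± 0.442), MCM10 (3.44 ± 0.618) and POLA1 (3.53 ± 0.574) next to each other above it. Within the MCM helicase, whose subunits stand in equal number in the ring, the RNA levels were unequal. MCM7 stood at 73.6 FPKM, MCM3 and MCM4 at 36.6 ± 1.68 and 35.7 ± 1.59, MCM5 and MCM2 at 24.5 ± 1.91 and 22.4 ± 0.930, and MCM6 at 18.8 ± 1.01. In the high glucose group MCM7 (58.8 ± 4.89 FPKM) was still the highest and MCM6 (11.9 ± 0.9496) the lowest, while MCM4 (28.4 ± 3.12) stood beside MCM3 (26.4 ± 1.92) and MCM2 (18.9 ± 1.01) beside MCM5 (16.7 ± 1.149). The neighbours MCM3 and MCM4 did not differ beyond their spread in either group.

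**Figure D4:**
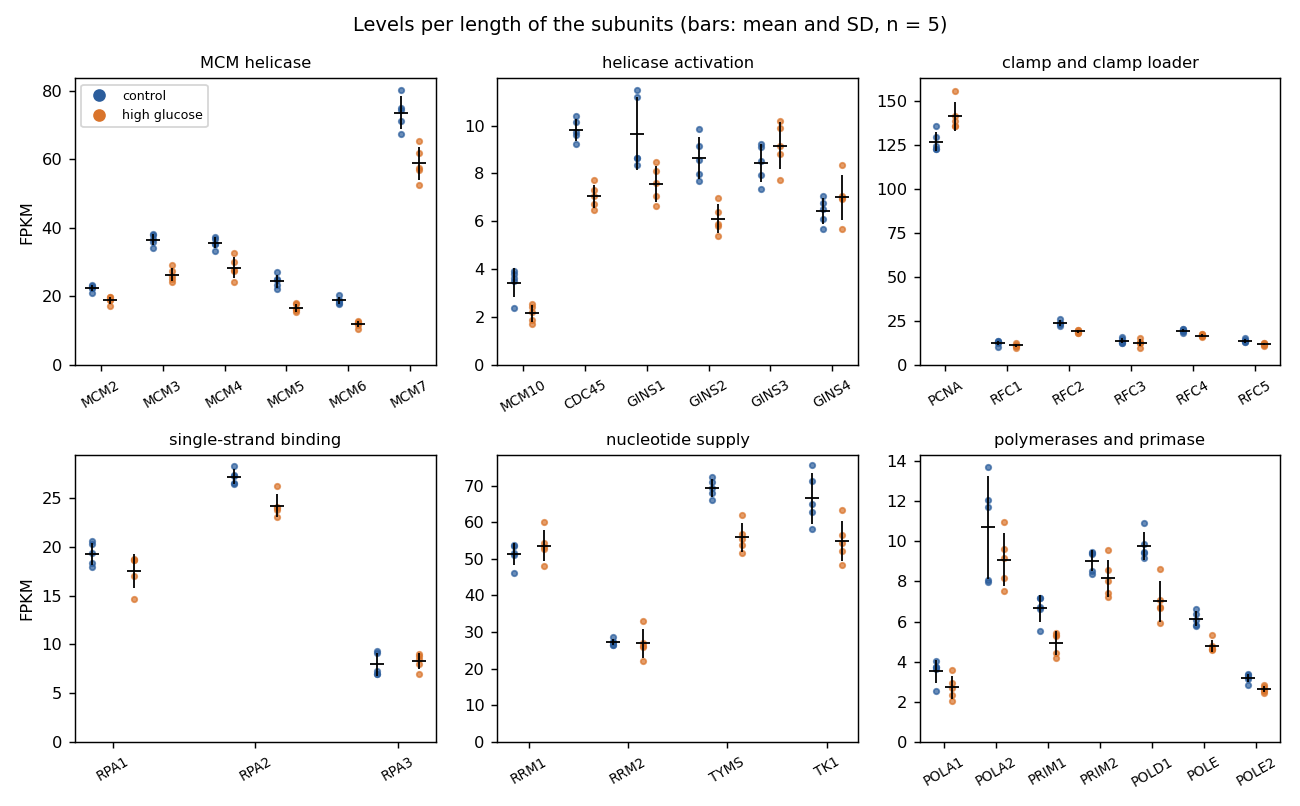
Levels per length (y axis, FPKM, from 0, with a scale of its own in each panel) of the genes of 6 roles in control (blue) and high glucose (orange) libraries, with bars for mean and SD (n = 5). MCM7 and PCNA stand above the other genes of their panels. The orange mean is above the blue one in PCNA, GINS3, GINS4, RPA3 and RRM1, and nearly level in RRM2.

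Genes of the same pathway outside the 42 were read from lists written from general knowledge. Of 40 other replication fork and origin genes, 9 (22.5%) were lower and 0 higher, beside 7.8% and 7.62% of all rows, with a median log2 fold change of -0.16. Among the 9 genes called, the 5 with the largest change were CHAF1A (log2 fold change -0.41, edgeR adjusted p = 0.00502), RECQL4 (-0.38, adjusted p = 0.039), ASF1B (-0.38, adjusted p = 0.0118), CHAF1B (-0.37, adjusted p = 0.00175) and CHTF18 (-0.35, adjusted p = 0.0113). CHAF1A and CHAF1B are subunits of the chaperone CAF-1, which sets histones on new DNA, and ASF1B hands histones to it. CHTF18 belongs to an alternative clamp loader, and RECQL4 is a helicase that takes part in origin firing.

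Of 34 other S phase and E2F target genes, 13 (38.2%) were lower and 1 higher, beside 7.8% and 7.62% of all rows, with a median log2 fold change of -0.25. E2F2, a relative of E2F1, fell from 3.45 ± 0.267 to 1.97 ± 0.236 CPM (log2 fold change -0.80, adjusted p = 0.00232). CDCA7 fell from 19.8 ± 1.14 to 11.4 ± 1.58 CPM (-0.79, adjusted p = 0.000425) and HELLS from 36.2 ± 2.27 to 22.2 ± 1.08 CPM (-0.71, adjusted p = 6.97e-05), 2 partners in a chromatin remodeller that serves DNA methylation. EZH2, a histone methyltransferase of the Polycomb group, was also lower (-0.52, adjusted p = 0.000351). The gene that rose was E2F7, a repressor of E2F target genes, from 39.2 ± 4.53 to 58.5 ± 10.2 CPM (log2 fold change 0.58, adjusted p = 0.0108), with HG_1 (42.7 CPM) inside the control range. In limma on log2(FPKM + 1) and on log2(FPKM + 0.1) over all rows, 0 genes of this list were higher. Those fits called 871 and 869 of 22626 rows higher. Without HG_1, 3 genes of this list were higher, in a fit that called 1469 of 15077 rows higher.

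Of 17 G1 regulators, 15 passed the filter (CCND2 and CDKN1C did not), 3 were lower and 1 higher, beside 7.8% and 7.62% of all rows, with a median log2 fold change of -0.053. CDK6, a kinase that phosphorylates RB1, fell from 161.9 ± 24.5 to 96.8 ± 13.6 CPM (log2 fold change -0.74, adjusted p = 0.00257). Its cyclin partner CCND3 (-0.40, adjusted p = 0.0139) and the inhibitor CDKN2B (-0.31, adjusted p = 0.0221) were lower as well. CDKN1A, the CDK inhibitor p21, rose from 513.2 ± 38.7 to 705.2 ± 66.0 CPM (log2 fold change 0.46, adjusted p = 0.00183), and its groups did not overlap.

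Of 25 genes of mitosis, 0 were called lower and 3 higher, beside 7.8% and 7.62% of all rows, which is near that background. Their median log2 fold change was 0.062, and 6 of the 25 had a negative one. CDC25C, the phosphatase that activates CDK1, rose from 9.00 ± 1.145 to 13.5 ± 1.33 CPM (log2 fold change 0.58, adjusted p = 0.00419) and CCNB2, a B-type cyclin, from 48.7 ± 2.31 to 60.3 ± 5.80 CPM (0.31, adjusted p = 0.0126). CENPF, a kinetochore protein, rose as well (0.30, adjusted p = 0.0422), with overlapping groups. Without HG_1, 6 mitosis genes were higher, in a fit that called 1469 of 15077 rows higher, beside 1138 of 14936 with all libraries. The mean log2 deviation over the 25 genes was between -0.096 and 0.027 in the control libraries and between -0.072 and 0.244 in the high glucose libraries. HG_4 was at 0.244 and held the highest value of its group in 20 of the 25 genes, so the library with the highest replication genes of its group also had the highest mitosis genes. The mean of the 42 replication genes minus that of the mitosis genes was between 0.122 and 0.235 in the control libraries and between -0.264 and -0.105 in the high glucose libraries, with HG_4 the lowest. These means are a description without a test, because both lists were chosen with results of these data known.

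**Figure D5:**
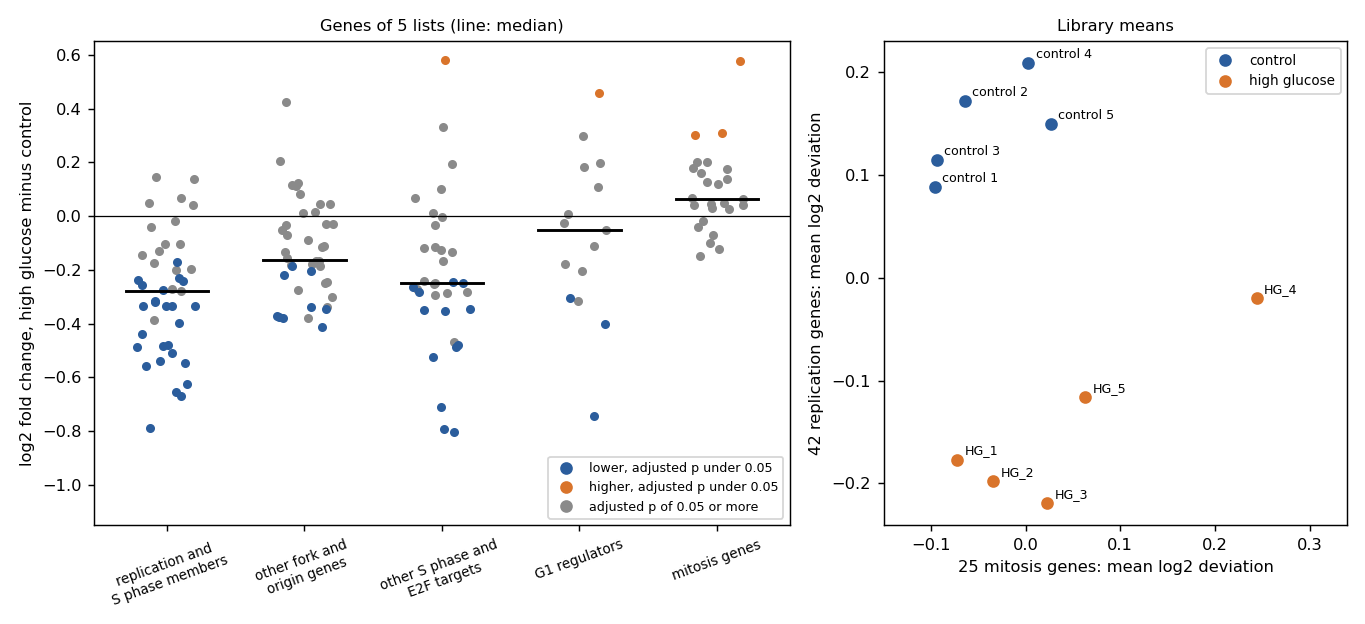
Left, log2 fold change (y axis) of the genes of 5 lists (x axis), with a black line at each median: -0.28 for the 42 genes, -0.16, -0.25, -0.053 and 0.062 for the other lists. Right, each library's mean log2 deviation over the 42 genes (y axis) against that over 25 mitosis genes (x axis); the control libraries lie above 0 on the y axis and the high glucose libraries below it.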

How the data were processed

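RNA of 10 ARPE-19 libraries was sequenced. The submitters' notes name fastp 0.20.1, HISAT2 2.2.1 and build GRCh38. The counting program, its annotation and the use of strand are not given in the sources used here. The authors deposited read counts per gene (whole numbers, without normalization) and FPKM values. Genes were taken by symbol and fitted with the whole count table in edgeR 4.0.16 (R 4.3.3): default filter, TMM normalization, quasi-likelihood test, Benjamini-Hochberg adjustment over 14936 rows. SE is the log2 fold change divided by the root of F. Steps were tested on simulated counts. CPM values are counts over normalized library size. Total counts of 32448991 to 45864176 set the counting error. Alternatives used DESeq2 1.42.0 and limma 3.58.1 on log2(FPKM + pseudocount). Exon overlaps and shared windows come from GENCODE release 29. The 42 genes, the other lists and the markers were chosen with earlier results of these data known, and 1 marker is not reported by itself here. Every library is printed for genes called lower without overlap, at most 16 by absolute log2 fold change, and for the gene with the largest change of each role. Up to 5 called genes of each other list are named. Control numbers and high glucose columns share numbers only: deviations of same-numbered libraries correlated between -0.066 and 0.039.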

Additional observations from a re-analysis of the deposited data

Results flagged for a closer look

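For each of the 42 genes and for the total counts, the 5 values of each group were checked for a library set well apart from the rest. This happened in 2 of the 86 sets of values, and chance alone gives about 4.3. Both were in control 2, which also stood apart on GC content. POLE2 was at 5.27 CPM in control 2, with the other control libraries between 5.75 and 5.91 CPM. UHRF1 was at 47.6 CPM there, with the others between 54.9 and 57.6 CPM. Both genes had a negative log2 fold change in every alternative run, that without control 2 included.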

How the results depend on the processing

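The 25 genes called lower had a negative log2 fold change in every alternative, and 11 were called in every fit; ORC1, POLE2, RPA2, GINS1 and RFC5 lost the call most often. Leaving out 1 library in turn gave 20 to 26 genes lower (20 without HG_3 or without control 4) and 0 higher, 5 to 8 other fork genes, 10 to 14 other S phase genes and 2 to 3 G1 regulators lower, 2 to 6 mitosis genes higher (6 without HG_1), and 1648 to 2993 rows called, against 2303 with all libraries. The replicate block by column number, though the numbers pair nothing by the labels and no same-numbered pair deviated together, gave 1071 rows called in either direction with 13 of the 42 genes, 4 other fork genes, 7 other S phase genes and 1 G1 regulator lower and 0 mitosis genes higher. Without HG_1 and control 2 there were 4035 rows called, 5 G1 regulators lower and 6 mitosis genes higher. The GC and length correction gave 3965 rows called in either direction, 31 of the 42 genes lower, 19 other fork genes, 20 other S phase genes and 7 G1 regulators lower and 1 mitosis gene lower. Higher calls, with all libraries 0 other fork genes, 1 other S phase gene and 1 G1 regulator, were 2, 2 and 3 with that correction, 2, 3 and 3 without HG_1 and control 2, 1, 3 and 2 without HG_1, and 0, 2 and 1 in DESeq2, and there were 2 G1 regulators higher without control 2. With a fold change above 1.5 besides, 551 rows were called in either direction, 4 of the 42 genes, 0 other fork genes, 3 other S phase genes and 1 G1 regulator were lower, and 0 genes of the mitosis or other lists were higher. DESeq2 called 3069 rows (1579 lower and 1490 higher) and gave 26 genes lower, 1 higher (PCNA) and 14 other fork genes lower. Library size alone called 2301 rows and also gave 1 higher. Limma on log2(FPKM + 1) and on log2(FPKM + 0.1) called 1735 and 1733 rows. Each gave 5 other fork and 8 other S phase genes lower and 0 higher. The cause of these differences was not tested.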
